A study of Fundulus heteroclitus with 36 samples.

Results

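chchd3b and chchd4b are 2 nuclear genes for mitochondrial proteins of the CHCHD family, which is named after the coiled-coil-helix-coiled-coil-helix fold. They are 2 of the 31637 killifish genes in the deposited data. Both were singled out with results of these data in view: chchd3b for its level in Scorton Creek embryos given PCB126 at 40 ng/L against Scorton Creek controls, and chchd4b for its level in New Bedford Harbor embryos given 400 ng/L against New Bedford Harbor controls. Values from those comparisons, and from any comparison of the same gene that reuses their embryos, are therefore given as descriptions with no test. chchd3b was tested in the New Bedford Harbor embryos and chchd4b in the Scorton Creek embryos, whose libraries had no part in the choice.

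RNA was sequenced from the whole brain of single Atlantic killifish (Fundulus heteroclitus) embryos at 17 days after fertilisation, with 36 embryos in 6 groups of 6. The New Bedford Harbor (NBH) groups were untreated controls (NBH Control), embryos given PCB126 at 40 ng/L (NBH PCB40) and embryos given 400 ng/L (NBH PCB400). The Scorton Creek (SCO) groups were embryos given PCB126 at 40 ng/L (SCO PCB40), untreated embryos whose parents ate a tuna-based diet high in methylmercury (SCO Hg Fed), and untreated controls (SCO Control). PCB126 was given from day 1 to day 7 after fertilisation, and the controls and the PCB126 embryos came from parents on a salmon-based diet low in methylmercury, so every group had some parental mercury. PCB126 acts like dioxin, by binding the aryl hydrocarbon receptor, a transcription factor. New Bedford Harbor is a harbour polluted with such compounds, and its killifish are known for their tolerance of them. No NBH group had the high-methylmercury diet and no SCO group had 400 ng/L. The labels do not say which embryos shared parents, so the p-values below measure the spread between these embryos.

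CHCHD3, also called MIC19, is a subunit of MICOS, the complex that holds the narrow necks of the cristae, the folds of the inner mitochondrial membrane, and that connects them to the outer membrane. CHCHD4, also called MIA40, is the oxidoreductase of the space between both membranes. It catches small cysteine-rich proteins as they enter and folds them by forming disulphide bonds, and the sulfhydryl oxidase GFER then oxidises it again. Many of its clients carry a twin CX9C motif, and CHCHD3 itself is one of them. These roles are known from mammals and yeast. The letter b marks a second copy of each gene in fish, and the killifish copy chchd3a was measured beside chchd3b. No gene in the data matched the name chchd4a or a synonym of it, so chchd4a was not analysed here.

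The RefSeq table places chchd3b (gene 105938604) on chromosome 2 between slc35b4 and LOC105938624, with 2 transcripts and 2 proteins. It places chchd4b (gene 105927210) on chromosome 20 between sec61a1 and uroc1, with 1 transcript and 1 protein. Both were expressed well above the limit of detection in each brain. chchd3b had 479 to 1748 estimated reads per library and chchd4b 1262 to 3879, whereas the floor of 3 counts per library corresponds to 0.0451 to 0.0779 CPM (counts per M reads). Per transcript length, chchd4b was the more abundant, at 24.3 to 64.9 TPM (transcripts per M, corrected for length) over the 36 libraries against 5.14 to 20.6 TPM for chchd3b.

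The libraries held 38.5 to 66.5 M estimated reads. Neuronal transcripts marked the tissue as labelled: the summed level of 7 neuronal marker genes ran from 2903 to 6069 CPM over the 36 libraries. CYP1A (LOC105930482), the enzyme gene that the aryl hydrocarbon receptor induces most strongly, averaged 146 ± 63.4 CPM in SCO PCB40 against 4.71 ± 4.33 CPM in SCO Control, and 396 ± 192 CPM in NBH PCB400 against 6.47 ± 3.96 CPM in NBH Control (SD, n = 6 each). In NBH PCB40 against NBH Control its log2 fold change was 3.63 (SE 0.67) and did not pass the test (adjusted p = 0.112, edgeR). Libraries also differed in how the level of a gene depended on its transcript length. The slope of a library's log2 level on log2 effective length was positive in 0 of 6 NBH Control, 1 of 6 NBH PCB40 and 4 of 6 NBH PCB400 libraries, and in 3 of 6 SCO PCB40, 6 of 6 SCO Hg Fed and 6 of 6 SCO Control libraries. The effective length of chchd3b, 1961 bases, is close to the median of 2075 bases over the 23292 genes tested, and that of chchd4b, 1282 bases, is longer than that of only 26.2% of them. Fold changes of both genes were therefore also computed with this slope as a covariate and with each library's length trend removed.

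**Figure D1:**
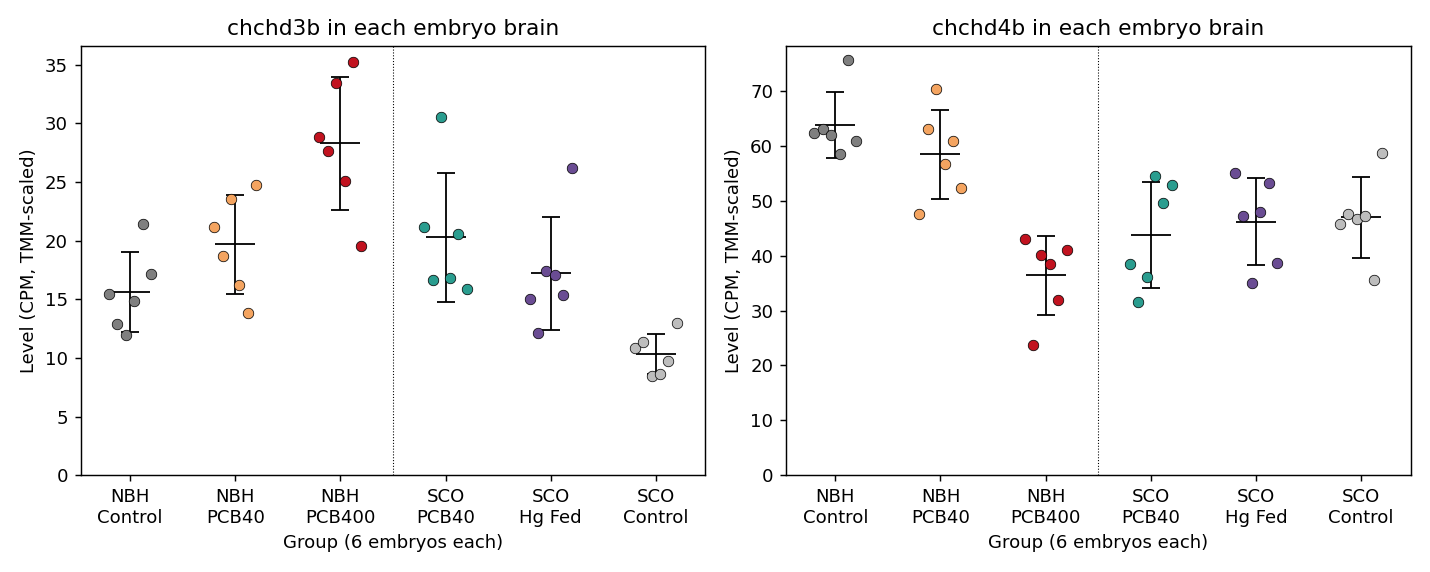
Level of chchd3b (left) and chchd4b (right) in each embryo brain, in CPM after TMM scaling, by group; points are embryos, and the bar and whiskers are the mean and SD of 6. chchd3b lies highest in NBH PCB400 (mean 28.3 CPM) and lowest in SCO Control (10.3 CPM), and chchd4b lies highest in NBH Control (63.8 CPM) and lowest in NBH PCB400 (36.4 CPM).

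In the New Bedford Harbor brains chchd3b rose at the higher dose. NBH Control embryos had a lowest level of 12.0, a median of 15.2 and a highest level of 21.4 CPM. NBH PCB40 embryos had 13.9, 19.9 and 24.7 CPM, and NBH PCB400 embryos 19.6, 28.2 and 35.3 CPM. At 400 ng/L, 5 of the 6 embryos lay above every control and the lowest treated embryo lay inside the control range, whereas at 40 ng/L the groups overlapped widely and 2 of 6 embryos lay above every control. The group means were 15.6 ± 3.39 CPM in NBH Control, 19.7 ± 4.24 CPM in NBH PCB40 and 28.3 ± 5.68 CPM in NBH PCB400 (SD, n = 6 each).

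Sums of marker genes of other tissues and cells were set beside this comparison. Summed erythrocyte markers (4 genes) ran from 47.2 to 87.2 CPM in NBH PCB400 and from 20.3 to 63.5 CPM in NBH Control. Summed posterior hox genes (9 genes), which are known to be expressed in the spinal cord and trunk, had a median of 0.68 CPM (0.31 to 29.2) in NBH PCB400 and of 22.2 CPM (7.01 to 30.9) in NBH Control, with hoxc10a and hoxd10a at 0 in both groups and hoxa10b at 0 in NBH PCB400. Summed pituitary markers (7 genes) had a median of 197 CPM (0.19 to 309) in NBH PCB400 and of 95.0 CPM (0.39 to 488) in NBH Control. The groups overlapped in all 3 sums, and the summed neuronal markers, given with chchd4b below, did not overlap. The part of these in the level of chchd3b was not tested.

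At 400 ng/L the log2 fold change of chchd3b against NBH Control was 0.86 (SE 0.18), or 1.81-fold, with an adjusted p of 0.011 from edgeR's quasi-likelihood test over all 23292 genes. The same test called 3.74% of all genes in either direction in this comparison, and 1.43% as higher. The log2 fold change of chchd3b was 0.85 with the length slope as a covariate and 0.91 with the length trend removed. The call held in all 12 fits that left out 1 embryo, with log2 fold changes of 0.78 to 0.97 and adjusted p of 0.00224 to 0.0417 in that test. At 40 ng/L the log2 fold change was 0.33 (SE 0.18), or 1.26-fold, and did not pass the test (adjusted p = 1, edgeR; 95% interval -0.02 to 0.69). In that comparison edgeR called 0.0% of all genes, with 713 genes at an unadjusted p under 0.05, 20 called by DESeq2 and 0 by limma voom. The 400 and 40 ng/L groups were set against the same 6 controls, and the difference between their responses was not tested.

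In the Scorton Creek brains, where the gene was chosen, chchd3b was higher in both exposed groups than in their controls. The lowest, median and highest levels were 15.9, 18.7 and 30.6 CPM in SCO PCB40, 12.1, 16.2 and 26.2 CPM in SCO Hg Fed, and 8.49, 10.3 and 13.0 CPM in SCO Control. All 6 SCO PCB40 embryos lay above every SCO Control embryo, a pattern that 0.481% of all genes tested showed, and from which nothing is read for a gene chosen by it. Of the SCO Hg Fed embryos, 5 of 6 lay above every control. The means were 20.3 ± 5.50 CPM in SCO PCB40, 17.2 ± 4.79 CPM in SCO Hg Fed and 10.3 ± 1.73 CPM in SCO Control (SD, n = 6 each).

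The log2 fold change against SCO Control was 0.97 (SE 0.18), or 1.96-fold, in SCO PCB40 and 0.73 (SE 0.18), or 1.66-fold, in SCO Hg Fed, both without a test. In each exposed group 1 embryo stood above the other 5. Without the SCO PCB40 embryo at 30.6 CPM the log2 fold change was 0.82, and without the SCO Hg Fed embryo at 26.2 CPM it was 0.57. The summed level of 8 skeletal muscle marker genes was 380 CPM in that SCO PCB40 embryo, against a group median of 65.0 CPM and 16.5 to 49.0 CPM in SCO Control. Summed erythrocyte markers (4 genes) ran from 59.8 to 144 CPM in SCO PCB40 and from 20.6 to 110 CPM in SCO Control. Leukocyte markers (9 genes) summed to 24.4 to 44.5 CPM and 17.5 to 31.6 CPM in the same groups. Pituitary markers (7 genes) had a median sum of 0.47 CPM (0.19 to 278) in SCO PCB40 and of 95.3 CPM (0.18 to 216) in SCO Control. Neuronal markers (7 genes) summed to 2903 to 5830 CPM in SCO PCB40 and 3702 to 5602 CPM in SCO Control. Posterior hox genes (9 genes) summed to 0.20 to 42.1 CPM and 0.03 to 15.6 CPM in those groups. The part of these cells in the level of chchd3b was not tested. In whole brains a change in the number of cells of a type and a change in RNA per cell cannot be told apart.

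The order of the 6 group means of chchd3b ran from NBH PCB400 through SCO PCB40, NBH PCB40, SCO Hg Fed and NBH Control to SCO Control. The first gap, 8.03 CPM between NBH PCB400 and SCO PCB40, and the last, 5.29 CPM between NBH Control and SCO Control, were larger than the larger SD of each pair. The 3 gaps between them, of 0.575 to 2.49 CPM, were not. This sets each gap beside the spread of single embryos, and the differences between neighbours among the 4 middle groups were not tested. The SD of SCO Control embryos was 1.73 CPM, against 3.39 to 5.68 CPM in the other groups, which had higher means. On log2 CPM it was 0.238 against 0.3 to 0.367. SCO Control took part in the choice of the gene, so nothing is read from its smaller spread.

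Both annotated transcripts of chchd3b contributed to its level. The transcript of 2250 bases averaged 3.90 ± 1.69 TPM in NBH Control, 5.20 ± 1.09 TPM in NBH PCB40 and 9.49 ± 2.47 TPM in NBH PCB400. The transcript of 2235 bases averaged 4.26 ± 0.919, 5.50 ± 2.03 and 7.37 ± 1.31 TPM in the same 3 groups (SD, n = 6 each). Each transcript was thus highest on average at the higher dose in NBH. In the Scorton Creek groups the longer transcript averaged 6.23 ± 2.96 TPM in SCO PCB40, 5.68 ± 2.44 TPM in SCO Hg Fed and 3.30 ± 0.343 TPM in SCO Control. The shorter one averaged 5.25 ± 2.33, 4.32 ± 1.20 and 2.71 ± 0.777 TPM in those groups. The longer transcript took 35.4% to 70.3% of the reads of the gene in single libraries. The transcripts differ by 15 bases in length, how reads were divided between them cannot be checked from these values, and no test was made of either transcript.

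**Figure D2:**
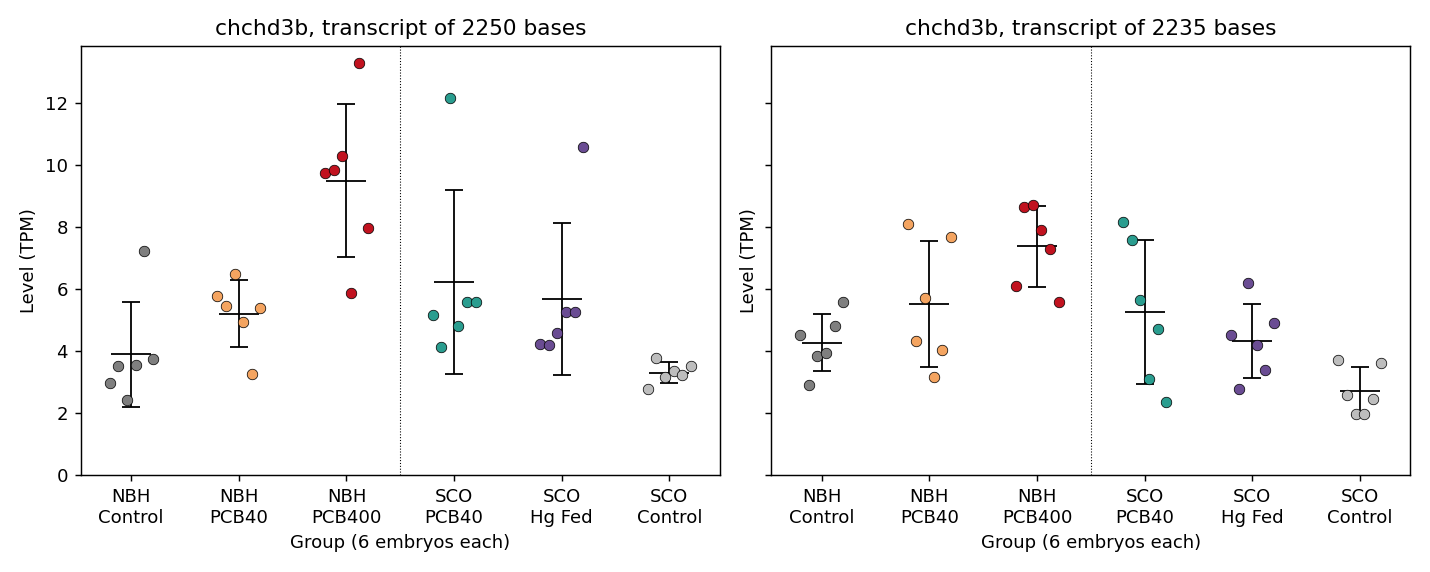
Level in TPM of the 2250-base (left) and 2235-base (right) transcripts of chchd3b in each embryo brain, by group; points are embryos, and the bar and whiskers are the mean and SD of 6. Both transcripts have their highest mean in NBH PCB400, at 9.49 and 7.37 TPM, and their lowest in SCO Control, at 3.30 and 2.71 TPM.

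The copy chchd3a (gene 105916217), which encodes the same MICOS subunit, did not pass the test in any exposure comparison. Its log2 fold change was 0.17 (SE 0.15) in SCO PCB40 and 0.09 (SE 0.15) in SCO Hg Fed against SCO Control, with adjusted p of 0.58 and 1 from edgeR. Against NBH Control it was 0.06 (SE 0.15) in NBH PCB40 and -0.24 (SE 0.15) in NBH PCB400, with adjusted p of 1 and 0.379 from edgeR. In NBH PCB400 it averaged 18.6 ± 3.54 CPM, against 21.9 ± 3.45 CPM in NBH Control (SD, n = 6 each), and the 95% interval of the log2 fold change was -0.53 to 0.06.

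The balance of both copies shifted at the higher dose in NBH. chchd3b made up 42.1 ± 6.65% of the summed TPM of both copies in NBH Control, 47.1 ± 9.25% in NBH PCB40 and 60.7 ± 4.87% in NBH PCB400 (SD, n = 6 each). The 6 NBH PCB400 embryos ran from 54.3% to 66.8%, above every NBH Control embryo at 34.3% to 53.0%, so that chchd3b was the more abundant copy in each brain given 400 ng/L. The log2 ratio of chchd3b to chchd3a was higher by 1.10 (2.15-fold) in NBH PCB400 than in NBH Control, with an exact two-sided permutation p of 0.00216, the smallest that the 924 splits of 6 against 6 can give, and an adjusted p of 0.00433 over the 2 such tests. In NBH PCB40 it was higher by 0.29 than in NBH Control, which did not pass the test (exact permutation p = 0.299, adjusted p = 0.299). In the Scorton Creek brains, given without a test, the share was 53.2 ± 7.47% in SCO PCB40, 50.2 ± 7.14% in SCO Hg Fed and 39.8 ± 4.70% in SCO Control. Reads shared by both copies may have been divided between them by estimation, which cannot be checked from these values.

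**Figure D3:**
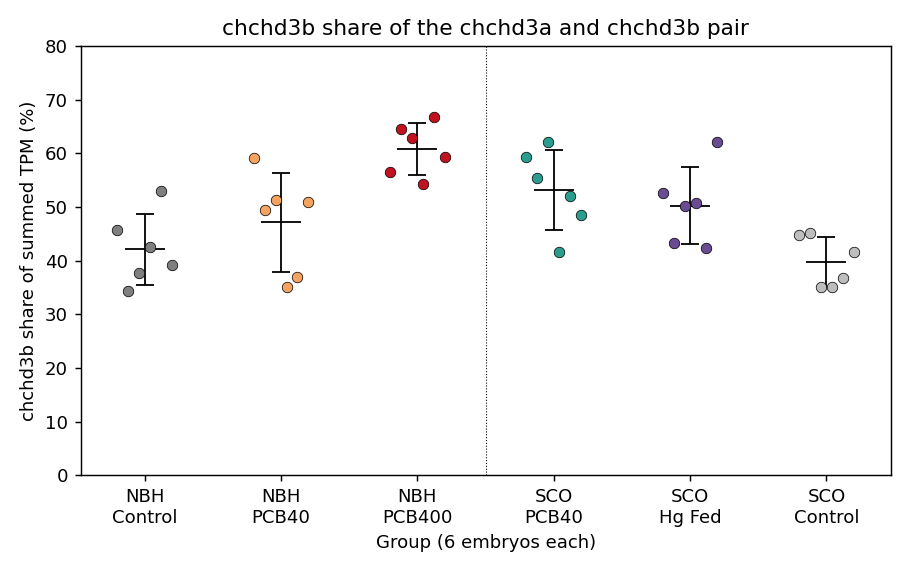
Share of chchd3b in the summed TPM of chchd3a and chchd3b, in percent, in each embryo brain, by group; points are embryos, and the bar and whiskers are the mean and SD of 6. All 6 NBH PCB400 embryos lie between 54.3% and 66.8%, above every NBH Control embryo (34.3% to 53.0%).

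chchd4b was near its control level in the exposed Scorton Creek brains. Its lowest, median and highest levels were 31.6, 44.1 and 54.5 CPM in SCO PCB40, 35.0, 47.6 and 55.1 CPM in SCO Hg Fed, and 35.6, 47.0 and 58.8 CPM in SCO Control. The 3 groups overlapped over most of their range. The means were 43.9 ± 9.64 CPM in SCO PCB40, 46.2 ± 7.95 CPM in SCO Hg Fed and 47.0 ± 7.37 CPM in SCO Control (SD, n = 6 each).

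The log2 fold change of chchd4b in SCO PCB40 against SCO Control was -0.10 (SE 0.14; 95% interval -0.38 to 0.18) and did not pass edgeR's test (adjusted p = 0.772), which called 2.67% of all genes in this comparison. In SCO Hg Fed it was -0.02 (SE 0.14; 95% interval -0.31 to 0.26), with an adjusted p of 1 from edgeR. That test called 0.0% of all genes in the parental diet comparison, with 1270 genes at an unadjusted p under 0.05, 95 called by DESeq2 and 1 by limma voom. The value in SCO PCB40 depended on the length treatment: it was -0.31 with the length slope as a covariate and -0.24 with the length trend removed, and neither passed the test (adjusted p of 0.198 and 0.306, edgeR).

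In the New Bedford Harbor brains, where it was chosen, chchd4b was lower at the higher dose. NBH Control embryos had a lowest level of 58.6, a median of 62.2 and a highest level of 75.7 CPM. NBH PCB40 embryos had 47.6, 58.8 and 70.4 CPM, and NBH PCB400 embryos 23.8, 39.4 and 43.0 CPM. Every NBH PCB400 embryo lay below every NBH Control and every NBH PCB40 embryo, while 3 of 6 NBH PCB40 embryos lay below every control. The first of these patterns, all 6 embryos at 400 ng/L below every control, was shown by 2.28% of all genes tested.

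Group means of chchd4b were 63.8 ± 6.03 CPM in NBH Control, 58.5 ± 8.09 CPM in NBH PCB40 and 36.4 ± 7.26 CPM in NBH PCB400 (SD, n = 6 each). The log2 fold change against NBH Control was -0.12 (SE 0.14) at 40 ng/L and -0.81 (SE 0.15) at 400 ng/L, the second equal to a level 0.57 times that of the controls, both without a test. The second value was -0.63 with the length slope as a covariate and -0.69 with the length trend removed. Corrected for length within each library, the mean was 50.7 TPM in NBH Control, 48.0 TPM in NBH PCB40 and 33.3 TPM in NBH PCB400. The summed level of the 7 neuronal markers also lay below the control range in this comparison, at 3719 to 4357 CPM in NBH PCB400 against 5313 to 6069 CPM in NBH Control. Summed oligodendrocyte markers (7 genes) ran from 1111 to 1850 CPM in NBH PCB400 and from 1579 to 2243 CPM in NBH Control. Their part in the levels of chchd4b and chchd3b was not tested.

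In the order of its group means chchd4b ran from NBH Control and NBH PCB40 through the Scorton Creek controls, SCO Hg Fed and then SCO PCB40 to NBH PCB400. The gap of 11.5 CPM between NBH PCB40 and SCO Control was the only one larger than the larger SD of its pair. The gaps among the 3 Scorton Creek groups were 0.762 and 2.37 CPM, and that between SCO PCB40 and NBH PCB400 was 7.42 CPM against an SD of 9.64 CPM.

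**Figure D4:**
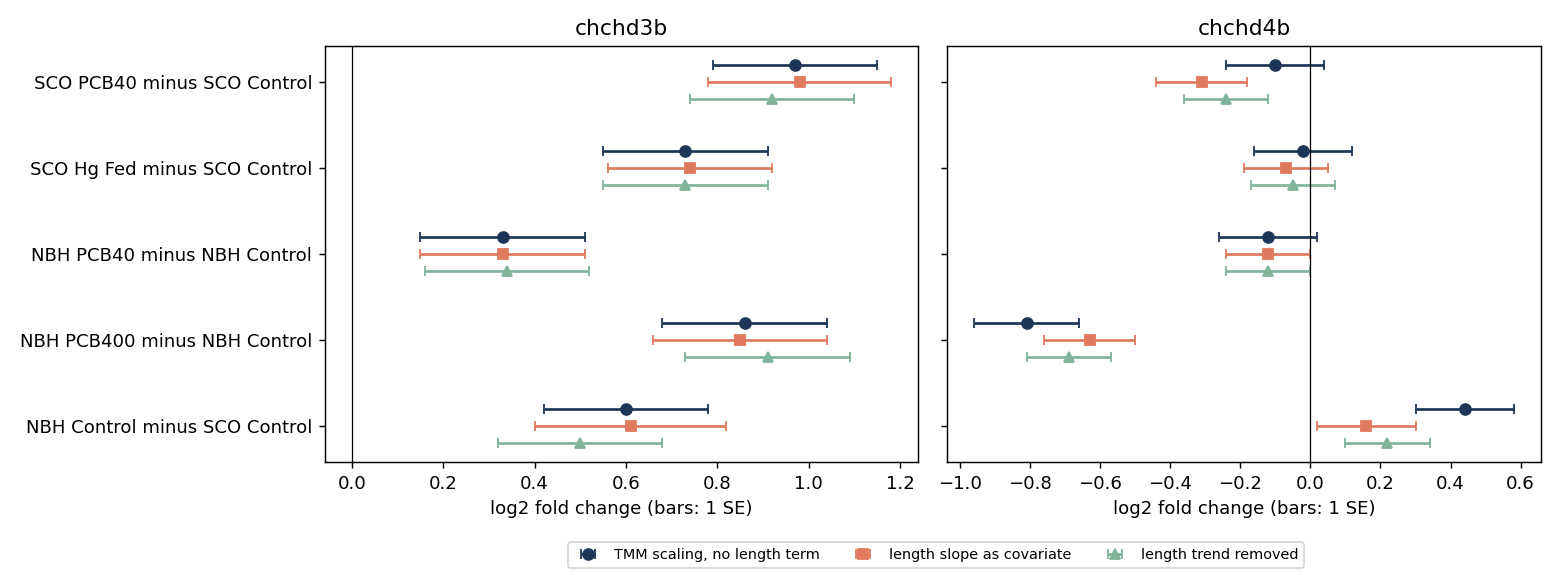
Log2 fold changes of chchd3b (left) and chchd4b (right) in 5 comparisons, with bars of 1 SE, from the fit with TMM scaling and no length term, with each library's length slope as a covariate, and with the length trend removed. The values of chchd3b differ little between the fits (0.85 to 0.91 in NBH PCB400), whereas that of chchd4b in NBH Control minus SCO Control is 0.44, 0.16 and 0.22.

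Both genes were also higher in untreated NBH embryos than in untreated SCO embryos, in comparisons that reuse the control embryos of the selecting ones and so have no test. The log2 difference between NBH Control and SCO Control was 0.60 (SE 0.18), or 1.51-fold, for chchd3b, with 4 of 6 NBH embryos above every SCO embryo. For chchd4b it was 0.44 (SE 0.14), or 1.36-fold, with 5 of 6 above, but 0.16 with the length slope as a covariate and 0.22 with the length trend removed. chchd3a, tested in this comparison, was higher in NBH Control at 21.9 CPM against 16.0 CPM in SCO Control (log2 0.45, SE 0.15; adjusted p = 0.035, edgeR), with 6 of 6 NBH embryos above every SCO embryo, as for 5.44% of all genes. The call of chchd3a did not hold with the length trend removed. The length slopes ran from -0.116 to -0.035 in NBH Control and from 0.015 to 0.137 in SCO Control. Between the controls, the fit with the slope as a covariate therefore cannot fully tell slope from population. The test called 17.4% of all genes in this comparison, 7.33% as higher and 10.0% as lower in NBH Control.

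Given the same 40 ng/L of PCB126, the response of chchd3b on the log2 scale was 0.33 in NBH brains and 0.97 in SCO brains. The difference between the responses, NBH minus SCO, was -0.64 (SE 0.26) for chchd3b and -0.02 (SE 0.20) for chchd4b, both without a test because the SCO response of the one and the NBH controls of the other entered the choice. edgeR called 0.0172% of all genes for this difference. The mean level of chchd3b at 40 ng/L was nearly the same in both populations, at 19.7 CPM in NBH PCB40 and 20.3 CPM in SCO PCB40, while the control means were 15.6 CPM in NBH and 10.3 CPM in SCO.

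The genes that act with CHCHD3 and CHCHD4 were examined through lists, each described by its counts and its median beside those of all genes. In NBH PCB400 against NBH Control, 0 of the 11 tested genes of the CHCHD and twin CX9C list, which holds neither chchd3b nor chchd4b, had a positive log2 fold change. Of these, 2 fell and 0 rose by the test, which called 2.31% of all genes as lower, and the median log2 fold change was -0.32, against 0.05 over all genes tested. With the length trend removed the median was -0.13 and 0 of the 11 were called. chchd3b, at 0.86, thus had the opposite sign to every tested gene of that list. chchd4b was at -0.81, the value by which it was chosen, so its place against the list is not read.

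The CHCHD-family gene that fell was chchd2, whose protein is linked to respiratory chain function and to an inherited form of Parkinson's disease in humans. It averaged 408 ± 61.6 CPM in NBH PCB400 and 605 ± 57.0 CPM in NBH Control (SD, n = 6 each), with a log2 fold change of -0.57 (SE 0.16; adjusted p = 0.0433, edgeR). The other was ndufb7, a twin CX9C subunit of respiratory complex I, at 227 ± 17.8 CPM in NBH PCB400 and 302 ± 24.0 CPM in NBH Control, with a log2 fold change of -0.41 (SE 0.12; adjusted p = 0.0499, edgeR). All 6 NBH PCB400 embryos lay below every NBH Control embryo for both genes, as for 2.28% of all genes tested. Neither call held with the length trend removed (adjusted p of 0.0527 for chchd2 and 0.307 for ndufb7, edgeR), and leaving out 1 embryo kept the call in 2 of 12 fits for chchd2 and 0 of 12 for ndufb7.

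The list of MICOS and outer membrane SAM complex genes, which also holds chchd3a, opa1, atad3 and slc25a46, had 14 tested genes. Their median log2 fold change in NBH PCB400 was -0.20. It was -0.13 with the length trend removed and -0.14 with the length slope as a covariate. Of the 14, 1 gene fell and 0 rose by edgeR, which called 2.31% of all genes as lower and 1.43% as higher. The gene was micos13, a MICOS subunit that joins the subcomplexes of MICOS, at 67.1 ± 16.7 CPM in NBH PCB400 and 112 ± 21.1 CPM in NBH Control (SD, n = 6 each; log2 -0.74, SE 0.21; adjusted p = 0.0465, edgeR). It was not called with the length trend removed (-0.51, adjusted p = 0.0672, edgeR), and leaving out 1 embryo kept the call in 4 of 12 fits. immt, the central scaffold of MICOS, had a log2 fold change of -0.32 (adjusted p = 0.242, edgeR) and samm50, the SAM channel to which MICOS binds, one of -0.40 (adjusted p = 0.0732, edgeR). Measured MICOS genes other than chchd3b therefore gave no called rise beside it.

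In NBH PCB400 edgeR called 3.74% of all genes, and 0 of the 9 tested for import into the space between the membranes, where CHCHD4 acts. Their median log2 fold change was -0.41, with 1 gene at an unadjusted p under 0.05 and 0 called by DESeq2 or limma voom, and it was -0.17 with the length trend removed. gfer, which oxidises CHCHD4, had a log2 fold change of -0.18 (adjusted p = 0.524, edgeR) and the small chaperone gene timm9, a client of CHCHD4, one of -0.41 (adjusted p = 0.242, edgeR).

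The TOM and TIM translocases carry most proteins into mitochondria. Of their 22 tested genes 3 fell and 0 rose in NBH PCB400 (median -0.32), where edgeR called 2.31% of all genes as lower and 1.43% as higher. With the length trend removed 2 of the 22 fell and 1 rose, with a median of -0.16. timm22, the channel for inner membrane carrier proteins and known in mammals as a disulphide-bonded protein, averaged 27.4 ± 3.97 CPM in NBH PCB400 and 40.3 ± 1.65 CPM in NBH Control (log2 -0.56, SE 0.13; adjusted p = 0.0142, edgeR), with 6 of 6 embryos below every control, as for 2.28% of all genes. It remained called with the length trend removed (-0.35, adjusted p = 0.0402, edgeR) and in 11 of 12 fits that left out 1 embryo. timm23a, a channel of the presequence route, averaged 132 CPM in NBH PCB400 and 195 CPM in NBH Control (log2 -0.56, SE 0.16; adjusted p = 0.0417, edgeR). dnajc15, a co-chaperone of the import motor, averaged 60.2 CPM in NBH PCB400 and 96.1 CPM in NBH Control (log2 -0.68, SE 0.17; adjusted p = 0.0256, edgeR). timm23a was not called with the length slope as a covariate and dnajc15 under neither length treatment, and leaving out 1 embryo kept the call in 5 of 12 fits for timm23a and in 8 of 12 for dnajc15.

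Nuclear genes of respiration formed the longest list, with 0 of 37 tested genes positive in NBH PCB400 and a median of -0.39. The median was -0.13 with the length trend removed and -0.14 with the length slope as a covariate. Of the 37 genes 6 fell and 0 rose by edgeR, which called 2.31% of all genes as lower and 1.43% as higher. The 3 with the smallest p were atp5mpl, a small subunit of ATP synthase (log2 -0.54, SE 0.13), ndufa6 (-0.56, SE 0.14) and ndufv3 (-0.52, SE 0.14), both subunits of complex I, with adjusted p of 0.0205, 0.0259 and 0.0314 from edgeR. None of these 3 was called with the length trend removed, where 3 of 37 genes of the list were, and leaving out 1 embryo kept the call in 11, 7 and 6 of 12 fits for them in that order. The list of mitochondrial dynamics and quality control had 0 of 22 genes called by edgeR (6 at an unadjusted p under 0.05, 0 by DESeq2 or limma voom) and a median of 0.01. Over the 6 mitochondrial lists together, 12 of 114 genes fell and 0 rose with a median of -0.31, and with the length trend removed 5 fell and 2 rose with a median of -0.12.

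**Figure D5:**
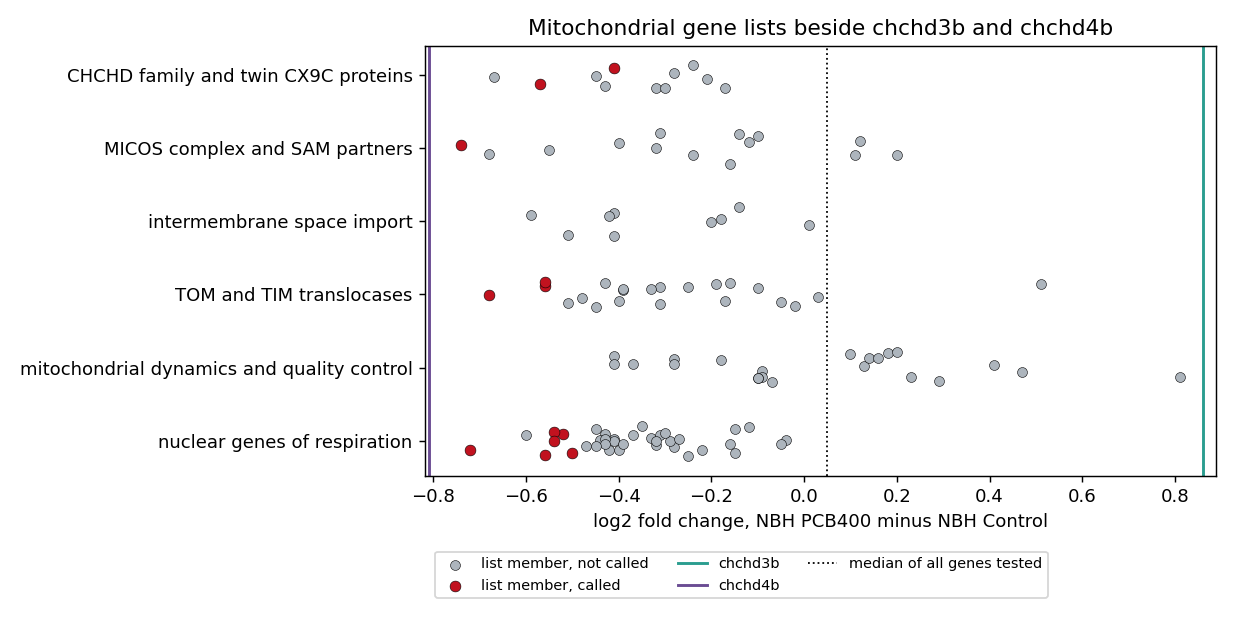
Log2 fold changes in NBH PCB400 minus NBH Control for the tested genes of 6 mitochondrial lists, 1 point a gene, with called genes (edgeR adjusted p under 0.05) in red; vertical lines mark chchd3b (0.86), chchd4b (-0.81) and the median of all genes tested (0.05). The CHCHD list lies wholly left of 0 (median -0.32) and chchd3b to the right of 0; the value of chchd4b is the one by which it was chosen.

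Stress genes were also read beside them, since a fault in mitochondrial import is known in mammals to switch on the integrated stress response. In NBH PCB400, 2 of 17 tested genes of that list rose and 0 fell by edgeR, which called 1.43% of all genes as higher. The median was -0.12, and 7 of the 17 had a positive log2 fold change. Among genes not called, chac1 was at -0.62, hspa5 at -0.56 and asns at -0.37. Others not called were eif2ak3 at 0.50, atf4a at 0.03 and atf4b at 0.02. ddit3, which encodes the stress transcription factor CHOP, ran from 29.8 to 45.8 CPM in NBH PCB400 and from 22.7 to 28.9 CPM in NBH Control, with 6 of 6 embryos above every control, as for 0.846% of all genes (log2 0.59, SE 0.13; adjusted p = 0.0158, edgeR). atf5a, which encodes a transcription factor of the mitochondrial stress response, averaged 14.3 ± 4.02 CPM in NBH PCB400 and 8.83 ± 1.78 CPM in NBH Control (log2 0.70, SE 0.19; adjusted p = 0.0375, edgeR). With the length trend removed the log2 fold changes were 0.68 for ddit3 and 0.64 for atf5a, and both stayed called, whereas with the slope as a covariate atf5a did not (0.49, adjusted p = 0.145, edgeR). Leaving out 1 embryo kept the call in 11 of 12 fits for ddit3 and in 5 of 12 for atf5a.

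In the other exposures edgeR called no gene of the mitochondrial lists in the fit without a length term. It called 2.67% of all genes in SCO PCB40 and 0.0% in both SCO Hg Fed and NBH PCB40. The counts of 0 in SCO Hg Fed and NBH PCB40 are therefore not particular to these lists. In SCO PCB40 against SCO Control, where chchd3b was at 0.97, edgeR called 0 of the 114 genes (12 at an unadjusted p under 0.05, 1 by DESeq2 and 1 by limma voom), with a median of 0.01. Without a length term the CHCHD list had a median of 0.09 in SCO PCB40, immt was at 0.24 (adjusted p = 0.451, edgeR) and gfer at 0.21 (adjusted p = 0.497, edgeR). The median of the CHCHD list was -0.04 with the length trend removed and -0.15 with the length slope as a covariate. In SCO Hg Fed, where chchd3b was at 0.73, edgeR called 0 of 114 (0 at an unadjusted p under 0.05, 0 by DESeq2 and 0 by limma voom), with a median of -0.03. In NBH PCB40, where chchd3b was at 0.33, edgeR called 0 of 114 (4 at an unadjusted p under 0.05, 1 by DESeq2 and 0 by limma voom), with a median of -0.08 and 1 of 11 genes of the CHCHD list positive.

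Between untreated populations most called mitochondrial genes had the direction of chchd3b and chchd4b. In this comparison edgeR called 7.33% of all genes as higher and 10.0% as lower in NBH Control. Over the 6 lists, 31 of 114 genes were higher and 3 lower in NBH Control than in SCO Control, and with the length trend removed 15 were higher and 4 lower. The summed level of the 7 neuronal markers was also higher, at 5313 to 6069 CPM (median 5613) in NBH Control against 3702 to 5602 CPM (median 4486) in SCO Control, and its part in these differences was not tested. The median log2 difference of the 114 genes was 0.24, against -0.01 over all genes, and it was 0.08 with the length trend removed and -0.02 with the length slope as a covariate. Of the CHCHD list 5 of 11 genes were higher and 0 lower, of the MICOS list 5 of 14, of the intermembrane space list 2 of 9, of TOM and TIM 3 of 22 and of respiration 15 of 37, each with 0 lower. Of the dynamics list 2 of 22 were higher and 3 lower. With the length trend removed 1 gene of the CHCHD list, 2 of the MICOS list and 0 of the intermembrane space list were higher, each with 0 lower. In that fit TOM and TIM had 2 higher and 2 lower, respiration 10 higher and 1 lower, and dynamics 0 higher and 1 lower. The shares of 7.33% and 10.0% belong to the fit without a length term. The fit with the trend removed called fewer of all genes, and its shares are not set beside these list counts, so nothing is read from them. chchd7, a small twin CX9C protein gene, averaged 111 ± 6.47 CPM in NBH Control and 78.2 ± 5.58 CPM in SCO Control (log2 0.51, SE 0.12; adjusted p = 0.00514, edgeR). It was 0.22 with the length trend removed (adjusted p = 0.0211, edgeR) and not called with the slope as a covariate. The slopes of both control groups did not overlap, so the covariate fit cannot fully tell slope from population.

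Of the genes named above as partners, immt and gfer were higher in NBH Control, whereas samm50 (log2 0.19; adjusted p = 0.315) and timm9 (log2 0.44; adjusted p = 0.125) did not pass edgeR's test. immt averaged 183 ± 14.1 CPM in NBH Control and 118 ± 29.2 CPM in SCO Control, with 6 of 6 NBH embryos above every SCO embryo, as for 5.44% of all genes (log2 0.63, SE 0.16; adjusted p = 0.00877, edgeR). It was 0.66 with the length trend removed (adjusted p = 0.00816, edgeR) and 0.30 with the slope as a covariate, where it was not called (adjusted p = 0.292, edgeR). gfer averaged 33.5 ± 2.25 CPM in NBH Control and 24.9 ± 5.12 CPM in SCO Control (log2 0.43, SE 0.15; adjusted p = 0.0433, edgeR), and was called in 1 of 12 fits that left out 1 embryo and under neither length treatment. ddit3 had the opposite order, at 25.2 ± 2.08 CPM in NBH Control and 40.0 ± 5.07 CPM in SCO Control (log2 -0.67, SE 0.13; adjusted p = 0.00215, edgeR). It was -0.84 with the length trend removed (adjusted p = 0.00242, edgeR) and -0.39 with the slope as a covariate, where it was not called (adjusted p = 0.0922, edgeR). For immt, gfer and ddit3 the fit with the slope as a covariate has the limit given above.

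Across the 36 brains the levels of chchd3b and chchd4b were only weakly related, with a Pearson r of -0.33 on log2 CPM and of -0.15 after the group means were removed. These correlations are descriptions over libraries that share groups, depth and length slope. Of 11938 genes compared, samd14 was the most like chchd3b (r = 0.799), followed by cep57l1 (0.769), flcn (0.765), sclt1 (0.765) and fam210b (0.762). With group means removed those 5 values were 0.744, 0.555, 0.690, 0.574 and 0.573. The copy chchd3a was not among them, at 0.172 and 0.022 with group means removed.

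The genes most like chchd4b had higher values. The first was ppp5c, which encodes a protein phosphatase that works with Hsp90, at r = 0.941 and 0.871 with group means removed. psme3, a proteasome activator subunit gene, had 0.917 and 0.867, and tmem101 had 0.912 and 0.866. mrps17, which encodes a protein of the mitochondrial ribosome, had 0.900 and 0.820, and dnajc30b, the gene of a mitochondrial J-domain protein in mammals, had 0.890 and 0.790. The effective lengths of these 5 genes ran from 480 to 2404 bases.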

How the data were processed

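The authors deposited 1 table per embryo holding an expected count for each transcript (unnormalised reads, estimated), TPM (scaled to the transcripts of each library) and effective transcript length in bases, per the file headers, for 56244 RefSeq transcripts. Salmon 1.3.0 and edgeR 3.30.3 are named in the submitters' processing notes with no role. The genome build is not given in the sources used here, so no coordinates are printed.

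All 56244 transcripts were matched to 31637 genes in a RefSeq table (assembly MU-UCD_Fhet_4.1). The transcripts' expected counts were added up by gene and then rounded. An edgeR 4.0.16 quasi-likelihood model (R 4.3.3, TMM scaling, filterByExpr by group, 1 coefficient for each group) was run on 36 libraries and 23292 genes, and tested on simulated data. Common biological coefficient of variation was 0.39. Genes were called at a two-sided Benjamini-Hochberg adjusted p under 0.05 over all genes. DESeq2 1.42.0, limma 3.58.1 (voom), RLE scaling, no filter, only the groups compared, a replicate block, both length treatments and leaving out each embryo were alternatives. The length slope was fitted to each library's log2 CPM (prior count 2) minus the mean of all libraries, over genes above 2 log2 CPM, and the trend was a lowess curve with a span of 0.3. The chchd3b to chchd3a ratio used TPM with no pseudocount. Planned ratio tests against chchd4a were not run because no gene matched that name, so p-values of the ratio were adjusted over 2 tests.

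Counting floors cover counting error only. No 2 libraries were identical. Members, lists and the rule for named genes (both members, their copies, up to 3 called genes per list and comparison with the smallest p, and the 5 genes most like each member, among those with a group mean of at least 1 CPM) were chosen with earlier results of these data known. samm50, immt, gfer and timm9, where not called, were named as partners after their values were seen. Lists matched by symbol miss genes known only by LOC number: 11 of 27 symbols of the CHCHD list, 14 of 26 of MICOS, 10 of 18 of intermembrane space import, 22 of 26 of TOM and TIM, 23 of 32 of dynamics and 37 of 68 of respiration matched.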

Additional observations from a re-analysis of the deposited data

Results flagged for a closer look

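Of the 12 groups of 6 embryos (both genes in each group), 3 held an embryo whose gap to its nearest neighbour exceeded Dixon's critical share of the range of its group. Chance gives about 1 in 20 groups. The first was the SCO PCB40 embryo with chchd3b at 30.6 CPM, where the other 5 ran up to 21.2 CPM. The second was the SCO Hg Fed embryo with chchd3b at 26.2 CPM, where the other 5 ran up to 17.4 CPM. The third was the NBH Control embryo with chchd4b at 75.7 CPM, where the other 5 ran up to 63.1 CPM. Without these embryos the log2 fold change of chchd3b was 0.82 in SCO PCB40 and 0.57 in SCO Hg Fed, and that of chchd4b in NBH PCB400 stayed between -0.86 and -0.71 whichever embryo was left out.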

How the results depend on the processing

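The log2 fold change of chchd3b kept its sign in every alternative run and with each embryo left out: 0.82 to 1.05 without 1 embryo in SCO PCB40, 0.57 to 0.82 in SCO Hg Fed, 0.26 to 0.44 in NBH PCB40, 0.78 to 0.97 in NBH PCB400, 0.48 to 0.67 between the controls and -0.71 to -0.48 for the difference of the 40 ng/L responses. For chchd4b these ranges were -0.17 to -0.02 in SCO PCB40, -0.18 to -0.07 in NBH PCB40, -0.86 to -0.71 in NBH PCB400 and 0.37 to 0.52 between the controls. For the difference of the 40 ng/L responses, -0.02 in the fit reported, they crossed 0, at -0.10 to 0.05 without 1 embryo and -0.04 to 0.19 over the other alternatives. In SCO Hg Fed they ran from -0.09 to 0.05, with the sign reversed without SCO Control replicate 6 (0.05), SCO Hg Fed replicate 3 (0.04) or replicate 6 (0.02), at an adjusted p of 1 by edgeR. Between the controls chchd4b was 0.16 with the length slope as a covariate and 0.22 with the length trend removed. The difference in the log2 ratio of chchd3b to chchd3a, NBH PCB400 minus NBH Control, ran from 1.01 to 1.23 without 1 embryo (exact permutation p of 0.00216 to 0.00433).

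Counts of called genes moved more. SCO PCB40 gave 622 (175 higher, 447 lower), but 1313 by DESeq2, 96 with only the groups compared, 320 with the length trend removed (152 higher, 168 lower), and 247 to 1469 without 1 embryo. Leaving out SCO Control replicate 1, 3 or 4 gave 261, 377 or 290 genes, and leaving out SCO PCB40 replicate 2, 4 or 5 gave 1469, 253 or 247. SCO Hg Fed gave 0, but 4 with RLE scaling, 6 with no filter, 95 by DESeq2, 1 by limma voom, 11 with the length covariate, 8 with the length trend removed and 0 to 7 without 1 embryo. NBH PCB40 gave 0, but 20 by DESeq2, and 0 to 1 without 1 embryo. NBH PCB400 gave 870 (332 higher, 538 lower), but 1574 by DESeq2, 500 with the length covariate (285 higher, 215 lower) and 192 to 1360 without 1 embryo. Leaving out NBH Control replicate 2, 3 or 6 gave 324, 566 or 379 genes, and leaving out NBH PCB400 replicate 2, 3, 5 or 6 gave 192, 368, 198 or 1360. With the length trend removed its split was 407 higher and 440 lower. The controls differed in 4048 genes, but in 6297 with only the groups compared, 539 with the length covariate, 2635 with the length trend removed and 2746 to 3947 without 1 embryo. The difference of the 40 ng/L responses gave 4, but 78 by DESeq2, 7 by limma voom, 2 with only the groups compared and 2 to 32 without 1 embryo. The cause was not tested.

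Replicate numbers did not pair the embryos (correlations of same-numbered deviations of -0.249 to 0.32, and at most 1 of 6 pairs over 0.1 in a comparison). With a replicate block chchd3b was 0.86 in NBH PCB400 and chchd4b -0.11 in SCO PCB40. The counts were 644 in SCO PCB40, 1 in SCO Hg Fed, 0 in NBH PCB40, 1039 in NBH PCB400, 4147 between the controls and 5 for the difference of responses.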
